A study of Mus musculus with 19 samples.

Results

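The genes described here are the 9 best known carriers and channels of duct fluid secretion: Cftr, Ano1, Slc4a4, Slc12a2, Car2, Kcnn4, Scnn1a, Aqp1 and Aqp5. They were chosen by name for their textbook roles, with earlier results of these data known. All 9 had a row among the 29861 rows of the deposited table, and all 9 passed the filter on low values that left 12500 genes for testing.

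RNA was measured by sequencing in 19 organoid lines, which are three-dimensional cultures of pancreatic duct cells in a basement membrane gel. The normal group held 7 lines from ducts of wild-type pancreas, the PanIN group 6 lines from ducts of pancreas with intraepithelial neoplasia, a precursor of ductal cancer, and the tumor group 6 lines from pancreatic adenocarcinoma. The PanIN and tumor mice carried the Pdx1-Cre transgene, which is active in the embryonic pancreas and so is not limited to duct cells, and the tumor mice also carried a Cre-activated Trp53 R172H allele, so the last pair of groups differed in genotype and in tissue of origin. All mice had a C57B6/J background. Female lines were 5 of the 7 normal, 3 of the 6 PanIN and 3 of the 6 tumor lines, and the rest were male. The culture medium was the same for every line and contained gastrin, the growth factors EGF and FGF-10, R-spondin, noggin and A83-01, an inhibitor of the TGF-beta receptor. No secretagogue other than gastrin is listed, and ages are not given in the labels. Nothing in the labels says whether lines shared a mouse, so p-values measure only the spread between lines.

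Pancreatic ducts wash the digestive enzymes of acinar cells into the gut with a fluid rich in bicarbonate. Bicarbonate enters the duct cell across the basolateral membrane, mainly through the sodium bicarbonate cotransporter Slc4a4, or is made inside the cell from carbon dioxide by carbonic anhydrase, of which Car2 is the main cytosolic form. It leaves across the luminal membrane through Cftr, a chloride and bicarbonate channel opened by cyclic AMP, and through anion exchangers of the Slc26 family, while potassium channels keep the membrane voltage negative and aquaporins let water follow. Secretin, acting through its receptor and cyclic AMP, is the main hormonal signal for this secretion.

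The 19 lines carried the RNA of duct epithelium with little of other pancreatic cell types. All 10 duct markers were detected in every group, and their summed level was 10230 to 15374 TPM in normal, 7842 to 12364 in PanIN and 7327 to 9238 in tumor lines. TPM is a transcript level per gene length that adds up to the same sum in each library. The 12 acinar markers summed to 1.23 to 3.21 TPM with Cpb1, Cela2a, Pnlip and Ptf1a listed at 0 in every line. Cela1 was the highest of them, at 0.79 to 2.36 TPM. The 10 endocrine markers summed to at most 0.32 TPM with Ins1, Ins2, Gcg, Ppy and Neurod1 listed at 0. The 8 endothelial markers summed to 0.35 to 2.12 TPM, with Esam the highest at 0.28 to 2.03 TPM and Emcn and Cldn5 listed at 0. The 10 fibroblast and smooth muscle markers summed to 0.27 to 5.65 TPM, mostly Vim, with Col3a1 and Lum listed at 0. Blood and immune markers, with 9 of 10 in the table, summed to 4.15 to 8.21 TPM in normal, 2.75 to 3.61 in PanIN and 1.72 to 3.94 in tumor lines, with Lyz2, Cd3e and Tyrobp listed at 0. This sum and the duct sum moved with the groups, and their part in the results was not tested. By principal components PanIN 6 lay beyond tumor 3, tumor 4 and tumor 7 on the axis that separated tumor from normal lines.

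The promoters of the 3 members that passed the test with a change of over 0.6 on the log2 scale are shown first. Aqp5 and Ano1 were both called higher in PanIN and in tumor lines than in normal lines, and Slc4a4 has more than 1 start. The sequences run from 250 bases before to 50 bases after the annotated start and come from RefSeq on build GRCm38.p6, which has entries for 6 of the 9 members. Lower case marks sequence without a match and capitals mark a GC box (GGGCGG), an E-box (CACGTG) or one of 5 other motifs searched on both strands: the TATA box (TATAAA), an AP-1 site (TGANTCA), an ETS core (CCGGAA), a forkhead site (TGTTTAC) and an HNF1 half-site (GTTAAT). No match of a motif overlapped a match of another in the sequences shown.
Aqp5, chr15:99590778-99591077, plus strand: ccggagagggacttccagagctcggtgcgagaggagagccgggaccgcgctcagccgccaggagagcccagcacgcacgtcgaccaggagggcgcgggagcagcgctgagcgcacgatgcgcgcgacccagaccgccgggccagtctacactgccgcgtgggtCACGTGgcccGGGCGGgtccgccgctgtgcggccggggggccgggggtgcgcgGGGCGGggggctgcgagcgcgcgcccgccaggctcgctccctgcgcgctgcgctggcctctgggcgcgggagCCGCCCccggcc
Ano1, chr7:144738524-144738823, minus strand: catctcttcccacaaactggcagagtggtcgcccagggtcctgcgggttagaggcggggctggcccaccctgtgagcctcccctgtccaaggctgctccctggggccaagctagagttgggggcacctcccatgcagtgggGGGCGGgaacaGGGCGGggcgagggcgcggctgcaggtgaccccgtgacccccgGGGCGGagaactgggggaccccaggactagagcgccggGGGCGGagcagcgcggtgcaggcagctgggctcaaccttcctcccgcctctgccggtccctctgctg
Slc4a4 upstream start, chr5:88887010-88887309, plus strand: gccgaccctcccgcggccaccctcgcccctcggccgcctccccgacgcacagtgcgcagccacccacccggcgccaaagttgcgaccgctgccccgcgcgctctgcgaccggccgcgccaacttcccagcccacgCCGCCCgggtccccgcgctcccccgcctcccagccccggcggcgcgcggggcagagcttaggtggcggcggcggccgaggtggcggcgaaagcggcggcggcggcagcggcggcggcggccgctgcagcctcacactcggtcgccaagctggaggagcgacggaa
Slc4a4 internal start, chr5:89027716-89028015, plus strand: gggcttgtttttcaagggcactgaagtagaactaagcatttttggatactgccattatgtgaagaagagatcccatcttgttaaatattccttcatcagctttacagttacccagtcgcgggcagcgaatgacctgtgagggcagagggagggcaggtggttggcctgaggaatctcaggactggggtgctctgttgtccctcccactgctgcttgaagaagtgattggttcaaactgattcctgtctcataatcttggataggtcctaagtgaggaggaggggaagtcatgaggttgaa
The Aqp5 promoter held 3 GC boxes and 1 E-box, the Ano1 promoter 4 GC boxes, and the upstream Slc4a4 promoter 1 GC box. The internal Slc4a4 promoter held none of the 7 motifs. Among 32851 promoters of the same length, 35.7% held a GC box, 7.15% an E-box, 13.6% a TATA box, 7.81% an AP-1 site, 14.9% an ETS core, 3.65% a forkhead site and 7.10% an HNF1 half-site. These are matches of letters only. GC content was 79.7% for Aqp5, 71.7% for Ano1 and 80.0% for the upstream Slc4a4 start, against a median of 52.7% over all promoters, whereas the internal Slc4a4 start had 48.3%. The upstream start of Slc4a4 is known to give the form of the protein found in pancreas and the internal start the form found in kidney; gene-level TPM does not separate them.

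The members spanned more than 2 orders of magnitude in level. In normal lines Car2 was highest at 288 ± 61.6 TPM (SD, n = 7), followed by Slc12a2 (128 ± 31.7), Aqp1 (85.5 ± 35.9), Kcnn4 (62.6 ± 10.3), Ano1 (54.1 ± 12.8), Aqp5 (27.1 ± 11.1), Slc4a4 (26.2 ± 5.0), Cftr (2.26 ± 0.889) and Scnn1a (1.31 ± 0.522). Car2 lay above Slc12a2, Ano1 above Aqp5 and Slc4a4 above Cftr in 7 of 7 normal lines; the other neighbours in this order changed places in some lines, Aqp5 and Slc4a4 in 3 of 7. Over all lines Car2 ranked at the 96.3rd percentile of the tested genes, Cftr at the 10.3rd and Scnn1a at the 6.97th. In tumor lines Aqp5 stood second behind Car2 and exceeded it in 2 of 6 lines, while Slc4a4, at 10.1 ± 6.72 TPM (SD, n = 6), exceeded Cftr in 4 of 6.

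**Figure D1:**
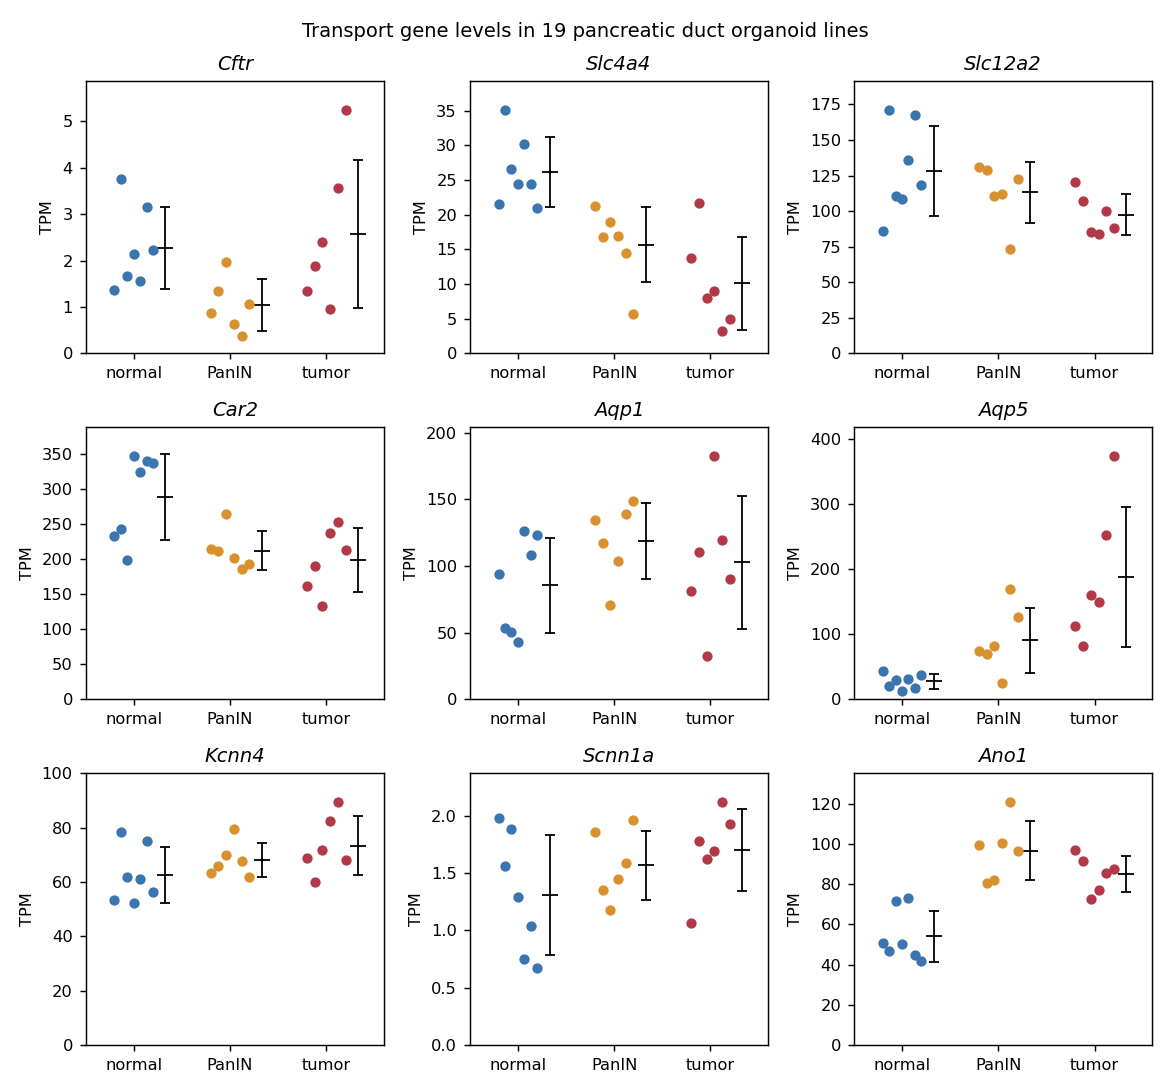
TPM of each transport gene (y axis, linear, from 0) in the 7 normal, 6 PanIN and 6 tumor lines (x axis); each point is 1 line and the bar beside it is the mean ± SD. Ano1 in all PanIN lines and Aqp5 in all tumor lines lay above every normal line, and 5 of 6 tumor lines lay below every normal line for Slc4a4.

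Compared with normal lines, PanIN lines had more Aqp5 and Ano1 RNA. These were 2 of 9 members called at an adjusted p below 0.05, both higher and none lower, where 6.78% of all tested genes were called. Ano1 was the only member whose PanIN and normal lines did not overlap, a separation seen in 3.05% of all genes. The members' median difference was 0.13 on the log2(TPM + 1) scale, on which all log2 differences and folds are given here, against -0.03 for all genes. This scale understates the change of low genes such as Cftr and Scnn1a.

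Tumor lines had more Aqp5 and Ano1 and less Slc4a4 and Car2 RNA than normal lines. These 4 of 9 members, 2 higher and 2 lower, were called where 32.2% of all genes were. Aqp5 alone had tumor and normal lines that did not overlap, as did 7.26% of all genes. The members' median difference was 0.21, against 0.04 for all genes. Of all called genes 55.1% were higher in tumor lines, or 37.4% when each library was rescaled without 11 very abundant rows that took 16.3% to 28.6% of its TPM, but the 4 member calls held under that rescaling.

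Between tumor and PanIN lines no member was called by limma, where 1.6% of all genes were called and 1.8% did not overlap. At an unadjusted p below 0.05 there were 3, Cftr and Aqp5 higher and Slc4a4 lower in tumor lines, and the authors' deposited table calls 1 of the 9, Cftr. The shares of all genes for these counts were not worked out, so they cannot be set against the 1.6%. The members' median difference was -0.12, against 0.06 for all genes. Because PanIN lines enter both this comparison and that with normal lines, and normal lines enter both comparisons with normal, the 3 sets of differences are not independent.

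**Figure D2:**
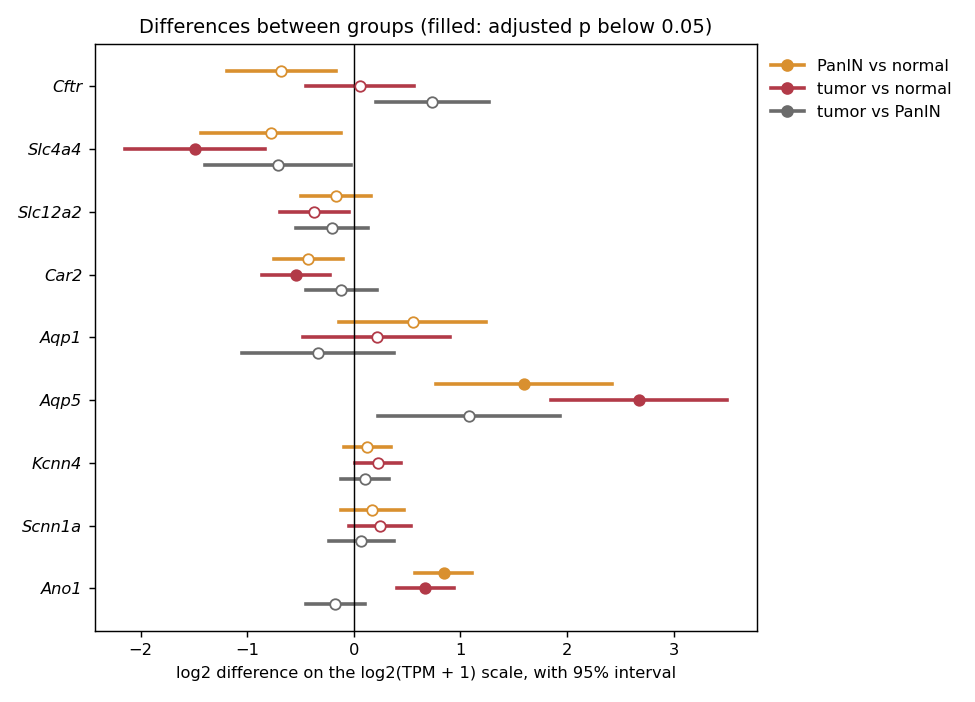
Difference between groups in log2(TPM + 1) (x axis) for each transport gene (y axis), with its 95% interval from limma; filled points passed an adjusted p of 0.05. Aqp5 and Ano1 lie to the right of 0 in both comparisons with normal lines, and Slc4a4 and Car2 to the left in tumor against normal.

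Among the luminal anion channels, Ano1 rose in both neoplastic groups while Cftr did not pass the test in any comparison. Ano1, a chloride channel opened by calcium, ranged from 41.8 to 72.9 TPM in normal lines (median 50.2), from 80.6 to 121 in PanIN lines (median 97.9) and from 72.7 to 97.0 in tumor lines (median 86.6). All 6 PanIN lines and 5 of 6 tumor lines exceeded every normal line; tumor 5, the lowest, fell just below normal 11, the highest. The difference was 0.84 (SE 0.13, adjusted p = 0.000496, 1.80-fold) for PanIN and 0.67 (SE 0.13, adjusted p = 0.00126, 1.59-fold) for tumor against normal lines. Tumor and PanIN lines differed by -0.17 (95% interval -0.45 to 0.10, adjusted p = 0.394).

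Library identifiers in the column names fall into 3 series, a possible batch, and each series held lines of all groups. Within them the Ano1 difference between PanIN and normal lines was 0.64, 0.72 and 1.30, and that between tumor and normal lines 0.71, 0.36 and 1.08, all in the pooled direction. Here and below, such values rest on 1 tumor line in the first series and on 1 PanIN line in the second.

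Cftr was low in all lines. It ranged from 1.36 to 3.76 TPM in normal lines (median 2.13), from 0.37 in PanIN 5 to 1.97 in PanIN 3 (median 0.965) and from 0.96 in tumor 7 to 5.24 in tumor 9 (median 2.14). The PanIN lines were the low group, with 5 of 6 below every normal line, whereas the tumor lines spread over and beyond the normal range. PanIN against normal gave -0.68 (SE 0.24, adjusted p = 0.107), tumor against PanIN 0.74 (SE 0.25, adjusted p = 0.0780) and tumor against normal 0.06 (95% interval -0.45 to 0.57, adjusted p = 0.876). In the authors' deposited table the first 2 of these pass, at a log2 fold change of -1.02 (adjusted p = 0.0387) and 1.15 (adjusted p = 0.0251). With a pseudocount of 0.1 in place of 1 the limma differences were -1.13 (adjusted p = 0.0769) and 1.17 (adjusted p = 0.0743), close in size to those of the authors and still short of a call. The level of Ano1 exceeded that of Cftr in every line, by 12.4 to 46.7 times in normal, 41.6 to 327 times in PanIN and 16.8 to 80.2 times in tumor lines, the largest ratio being that of PanIN 5.

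Of the 3 genes that load the cell with bicarbonate and chloride, Slc4a4 and Car2 fell in tumor lines. In bulk RNA, fewer cells that express a gene and less RNA per cell cannot be told apart, here and in all comparisons that follow. Slc4a4 ranged from 20.9 to 35.1 TPM in normal lines (median 24.4), from 5.74 to 21.2 in PanIN lines (median 16.8) and from 3.23 to 21.6 in tumor lines (median 8.48). In each neoplastic group 5 of 6 lines lay below every normal line, and the exceptions were PanIN 1 and tumor 4, within the lower part of the normal range. PanIN 6, at 5.74 TPM, was far below the other PanIN lines, which started at 14.4.

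Tumor against normal lines gave a Slc4a4 difference of -1.49 (SE 0.31, adjusted p = 0.00246), a 2.81-fold lower level. PanIN lines lay between, at -0.78 against normal (SE 0.31, adjusted p = 0.166), and tumor against PanIN gave -0.71 (SE 0.33, adjusted p = 0.151). The last difference was called when either of 2 lines was left out, at -0.96 without PanIN 6 (adjusted p = 0.0297) and at -0.96 without tumor 4 (adjusted p = 0.0319). Within the identifier series it was 0.19, -1.31 and -0.12, so it did not hold its direction in the first series. By sex it was -1.66 in female and 0.23 in male lines, with 3 lines of each group, and both PanIN 6 and tumor 4 are male. A part of sex in this difference was not tested. The tumor minus normal difference within the 3 series was -0.32, -1.96 and -1.33; the smallest is that of the first series, whose only tumor line is tumor 4.

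Car2 ranged from 199 to 347 TPM in normal lines (median 323), from 186 to 264 in PanIN lines (median 206) and from 133 to 253 in tumor lines (median 201). The normal lines fell into 199 to 242 TPM in the first identifier series and 323 to 347 in the other 2 series, so the neoplastic lines overlapped only the first-series normal lines. The tumor minus normal difference was -0.54 (SE 0.15, adjusted p = 0.0125, 1.46-fold lower), and within series it was -0.24, -0.74 and -0.86. With series as a term it was -0.60 (adjusted p = 0.0128). PanIN against normal gave -0.43 (SE 0.15, adjusted p = 0.110), with within-series values of 0.03, -0.73 and -0.83, and it passed without normal 7 (-0.51, adjusted p = 0.0431). The red blood cell genes Hbb-b1 and Alas2 reached at most 0.17 and 0.04 TPM in any line. The cells that gave the Car2 RNA were not tested.

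Slc12a2, the sodium potassium chloride cotransporter that brings chloride into secretory cells, did not pass. It ranged from 86.0 to 171 TPM in normal lines (median 118), from 73.4 to 131 in PanIN lines (median 117) and from 83.9 to 121 in tumor lines (median 93.9). The groups overlapped widely, and PanIN 5 was the lowest of all lines. Tumor against normal gave -0.37 (SE 0.16, adjusted p = 0.0734), which passed under 6 of 32 other settings, among them median-of-ratios scaling (adjusted p = 0.0487), quantile normalization (adjusted p = 0.0332) and omission of normal 5 (adjusted p = 0.0244). The authors' deposited table has it as called, at a log2 fold change of -0.41 (adjusted p = 0.0313).

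On the log2(TPM + 1) scale no group difference of Kcnn4 or Scnn1a exceeded 0.25 in the 3 comparisons, and none passed. Kcnn4, a calcium-activated potassium channel that supports anion exit, ranged from 52.4 to 78.2 TPM in normal, 61.8 to 79.4 in PanIN and 60.0 to 89.5 in tumor lines, with medians of 61.0, 66.8 and 70.1. Tumor against normal gave 0.23 (SE 0.10, adjusted p = 0.0949), PanIN against normal 0.13 (95% interval -0.09 to 0.35, adjusted p = 0.571). The tumor difference passed without normal 6 (0.28, adjusted p = 0.0401) or without tumor 4 (0.28, adjusted p = 0.0378). With a coefficient of variation of 14.7% over 19 lines, Kcnn4 varied less than any other member.

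Scnn1a, the alpha subunit of the epithelial sodium channel, which absorbs rather than secretes, stayed at 0.67 to 2.12 TPM in all lines. Its medians were 1.29 in normal, 1.52 in PanIN and 1.74 in tumor lines, and the groups overlapped. PanIN against normal gave 0.18 (95% interval -0.12 to 0.47, adjusted p = 0.564) and tumor against normal 0.25 (95% interval -0.05 to 0.54, adjusted p = 0.183). With a pseudocount of 0.1 the limma tumor minus normal difference of Scnn1a was 0.42 (adjusted p = 0.174). The authors' deposited table has it at a log2 fold change of 0.36 (adjusted p = 0.210). Scnn1b and Scnn1g, which encode the partner subunits that a full channel needs, reached at most 0.02 TPM each and were listed at 0 in 18 and 14 of 19 lines.

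Of the water channels Aqp5 rose in both neoplastic groups, and Aqp1 did not pass in any comparison. Aqp5, which in exocrine glands sits in the luminal membrane, ranged from 12.1 to 43.3 TPM in normal lines (median 29.5), from 25.3 to 169 in PanIN lines (median 77.5) and from 81.7 to 373 in tumor lines (median 154). Every tumor line and 5 of 6 PanIN lines exceeded every normal line; PanIN 4, at 25.3 TPM, lay inside the normal range. Tumor 9 (373 TPM) and tumor 8 (252 TPM) were the highest and tumor 4 the lowest of the tumor lines.

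PanIN against normal gave an Aqp5 difference of 1.60 (SE 0.39, adjusted p = 0.0182, 3.03-fold) and tumor against normal one of 2.67 (SE 0.39, adjusted p = 0.000227, 6.38-fold). The PanIN call was lost without PanIN 5 (1.38, adjusted p = 0.0570). Tumor against PanIN gave 1.08 (SE 0.41, adjusted p = 0.0972) and passed without PanIN 6 (1.21, adjusted p = 0.0478) or without tumor 4 (1.28, adjusted p = 0.0380), with within-series values of 0.13, 2.80 and 0.49. Within the identifier series the tumor minus normal difference was 1.43, 3.16 and 2.98 and the PanIN minus normal difference 1.30, 0.37 and 2.49; the smallest PanIN value is that of the second series, where PanIN 4 is the only PanIN line.

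Aqp1, the water channel of duct and endothelial cells, varied widely without a shift between groups that passed. It ranged from 42.9 to 127 TPM in normal lines (median 93.8), from 70.4 to 149 in PanIN lines (median 126) and from 32.3 in tumor 5 to 183 in tumor 7 (median 100.2). PanIN against normal gave 0.55 (95% interval -0.14 to 1.24, adjusted p = 0.395), tumor against normal 0.21 (95% interval -0.48 to 0.90, adjusted p = 0.645). Of the endothelial markers, Pecam1 and Cdh5 reached at most 0.06 and 0.01 TPM in these lines, while Esam lay at 0.28 to 2.03 TPM. The cells that gave the Aqp1 RNA were not tested.

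The balance of the 2 water channels differed by line. Aqp5 made up 13.7% to 36.9% of the summed Aqp1 and Aqp5 TPM in normal lines, 19.6% to 54.8% in PanIN lines and 42.6% to 83.1% in tumor lines. The shares of all tumor lines lay above those of all normal lines. Aqp5 TPM by itself also separated these groups, so this is not an independent result. How often other gene pairs separate them was not worked out. Aqp5 exceeded Aqp1 in no normal line, in PanIN 3 and PanIN 5, and in 4 of 6 tumor lines (tumor 3, 5, 8 and 9).

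Slc4a4 and Aqp5 took opposite places along the tumor lines. Tumor 4 had the highest Slc4a4 (21.6 TPM) and the lowest Aqp5 (81.7 TPM) of its group, and tumor 8 and tumor 9 had the lowest Slc4a4 (3.23 and 4.96 TPM) and the highest Aqp5. The ratio of Aqp5 to Slc4a4 TPM was 0.494 to 2.01 in normal, 1.49 to 21.8 in PanIN and 3.77 to 78.0 in tumor lines. On the first principal component of all tested genes tumor 4 also lay lowest of the tumor lines (0.09) and tumor 8 highest (45.7), with tumor 5 at 40.6 and tumor 9 at 37.6. Whether the 2 genes are related beyond that axis was not tested.

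**Figure D3:**
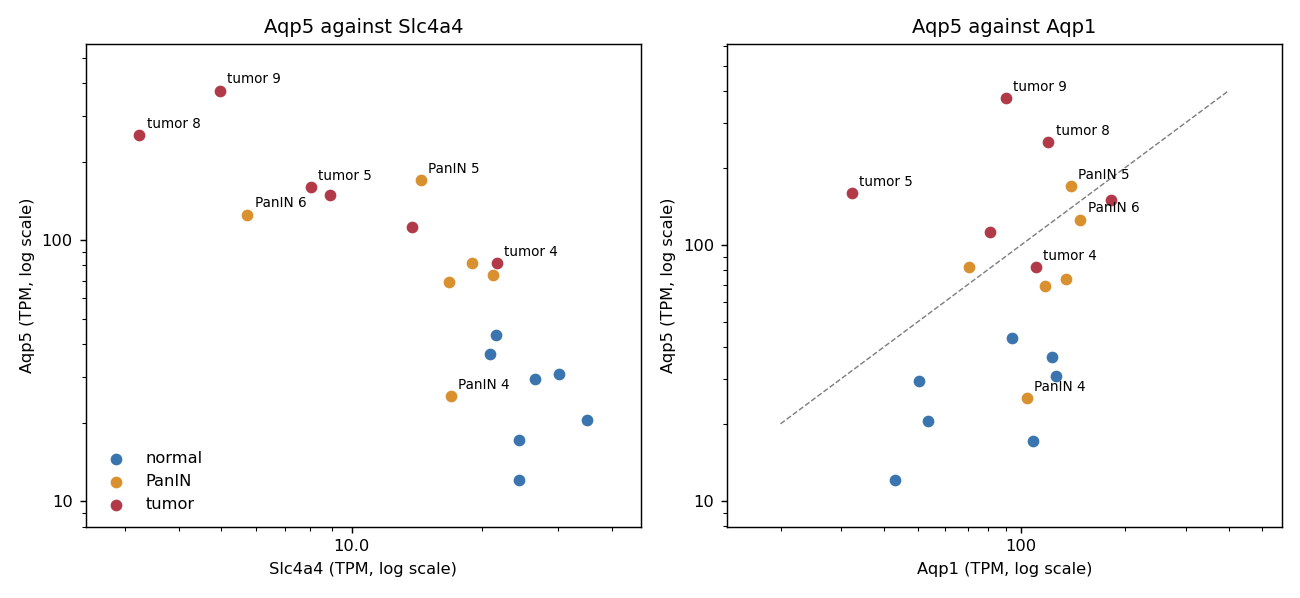
Aqp5 TPM (y axis, log scale) against Slc4a4 TPM (left) and Aqp1 TPM (right; x axes, log scale) with 1 point per line, coloured by group; the dashed line marks equal levels. Normal lines sit at the lower right of the left panel, and tumor 8 and tumor 9 at its upper left; in the right panel 2 PanIN lines and 4 tumor lines lie above the dashed line.

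The rest of the secretory machinery was read from a list of 147 further genes in 8 groups, of which 78 passed the filter. In PanIN against normal lines 7 of the 78 were called, 4 higher and 3 lower, or 8.97% against 6.78% of all genes. In tumor against normal lines 24 were called, 10 higher and 14 lower, or 30.8% against 32.2%. In tumor against PanIN lines 2 were called, both higher, or 2.56% against 1.6%. These shares are near those of all genes. The list's median difference was 0.02 for PanIN against normal, 0.05 for tumor against normal and 0.02 for tumor against PanIN.

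Several receptors that start ductal secretion in the animal were barely detected. The secretin receptor gene Sctr reached at most 0.03 TPM and was listed at 0 in 16 of 19 lines; the cholecystokinin receptor genes Cckar and Cckbr reached at most 0.02 TPM and were listed at 0 in 14 and 19 lines. These genes, like Scnn1b and Scnn1g above and the other low genes of this paragraph, are singled out after their values were seen. Of the 69 list genes not tested, 64 stayed below 1 TPM in every line, including Car4, a membrane-bound carbonic anhydrase (at most 0.03 TPM), Slc26a3, an anion exchanger (at most 0.03 TPM), Slc9a3, a sodium proton exchanger (at most 0.11 TPM) and Kcnma1, the large-conductance potassium channel (at most 0.53 TPM). Slc26a6, the other duct anion exchanger, averaged 1.54 TPM.

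Of the 7 tested receptor genes, 2 were called in PanIN against normal lines (28.6%, against 6.78% of all genes) and 4 in tumor against normal lines (57.1%, against 32.2%). F2rl1, a receptor cleaved by trypsin, was the most abundant at 92.4 TPM on average and did not pass. P2rx4, a channel opened by ATP, rose from 12.7 ± 2.12 TPM in normal lines to 21.9 ± 3.80 in PanIN lines (0.74, adjusted p = 0.00171) and 20.6 ± 3.50 in tumor lines (0.66, adjusted p = 0.00156). P2ry2, which couples ATP and UTP to calcium release, fell from 32.5 ± 5.72 to 21.3 ± 3.91 TPM in tumor lines (-0.59, adjusted p = 0.00230). Ptger4, a prostaglandin E2 receptor coupled to cyclic AMP, fell in PanIN (-0.92, adjusted p = 0.00151) and in tumor lines (-0.68, adjusted p = 0.00443).

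Among 18 tested regulators, 2 were called in PanIN against normal lines (11.1%, against 6.78% of all genes) and 6 in tumor against normal lines (33.3%, near the 32.2% of all genes). Prkar2b, a regulatory subunit of the cyclic AMP-dependent kinase, fell from 15.7 ± 7.58 TPM in normal lines to 7.03 ± 1.81 in PanIN (-0.97, adjusted p = 0.0181) and 6.87 ± 2.20 in tumor lines (-1.01, adjusted p = 0.00450). Pde4d, which breaks down cyclic AMP, rose in tumor lines (0.75, adjusted p = 0.00485). Stk39, a kinase that acts on Slc12a2, rose in tumor lines against normal (0.59, adjusted p = 0.00296) and against PanIN lines (0.54, adjusted p = 0.0491), the latter in 10 of 32 other settings as well. Ezr, which anchors luminal membrane proteins to actin and was the most abundant regulator, rose in PanIN lines by 0.33 (adjusted p = 0.0236), a call that held in 24 of 32 other settings.

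In the group of base, proton and chloride carriers, 4 of the 10 tested were called in tumor against normal lines (40.0%, against 32.2% of all genes). In PanIN against normal lines limma called 0 of the 10, against 6.78% of all genes. An unadjusted p below 0.05 was seen for 2, a threshold at which the share of all genes was not worked out. Slc16a1, a lactate and proton carrier and the most abundant of them, rose from 57.7 ± 9.50 TPM in normal to 97.1 ± 20.3 in tumor lines (0.73, adjusted p = 0.000801) without overlap, and it passed against PanIN lines too (0.58, adjusted p = 0.0392, and in 21 of 32 other settings). Slc4a3, an anion exchanger, fell from 2.30 ± 0.439 to 0.753 ± 0.269 TPM in tumor lines (-0.92, adjusted p = 0.00451). Slc12a7, a potassium chloride cotransporter, fell by 0.34 (adjusted p = 0.0172). Of 5 tested carbonic anhydrases 1 was called in tumor against normal lines, where 32.2% of all genes were. It was Car5b, a mitochondrial form at 0.563 TPM in normal lines (0.53, adjusted p = 0.0186). All normal lines had Car5b below the filter's cut of 1 TPM (at most 0.7). Car5b was therefore tested only through PanIN and tumor lines. Its tumor lines started at 0.39 TPM and overlapped the normal lines. Car9, the most abundant of the 5, gave -0.31 (95% interval -0.98 to 0.37, adjusted p = 0.487).

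Of 18 tested anion channels and exchangers, 2 were called in PanIN (11.1%) and 6 in tumor lines (33.3%) against normal, where 6.78% and 32.2% of all genes were. Slc26a2, a sulfate carrier, rose from 18.3 ± 7.18 TPM in normal to 42.2 ± 8.75 in PanIN lines (1.21, adjusted p = 0.00149) and 46.4 ± 14.3 in tumor lines (1.32, adjusted p = 0.000415). Unlike Ano1, the anoctamin gene Ano8 fell in PanIN (-0.36, adjusted p = 0.0175) and tumor lines (-0.48, adjusted p = 0.000996), and Ano10 fell in tumor lines (-0.42, adjusted p = 0.00166). Clic1, the most abundant gene of the group, fell by 0.23 in tumor lines (adjusted p = 0.0118).

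Of 6 tested potassium channels 1 was called in PanIN against normal lines (16.7%, against 6.78% of all genes). It was Kcnk5, an acid-sensitive channel that was higher in PanIN lines (0.52, adjusted p = 0.0161). In tumor against normal lines 0 of the 6 were called, against 32.2% of all genes. For 3 of them the unadjusted p was below 0.05, where the share of all genes was not worked out. All 6 differences were above 0, with a median of 0.34 against 0.04 for all genes, so the lack of calls does not show that these channels were unchanged. Kcne3, a subunit that keeps the Kcnq1 channel open and the most abundant of the 6 tested, gave 0.56 in tumor against normal lines (adjusted p = 0.0718). In the sodium channel and pump group 2 of 12 tested genes were called in tumor against normal lines (16.7%, against 32.2% of all genes). Atp1b3, a pump subunit, rose by 0.35 (adjusted p = 0.0171) and Spint2, an inhibitor of channel-activating proteases, fell by 0.31 (adjusted p = 0.0449) in tumor lines, the latter passing in 14 of 32 other settings. Of 2 further aquaporins tested 1 was called in tumor against normal lines (50.0%, against 32.2% of all genes). Aqp9 rose from 0.294 ± 0.279 to 1.75 ± 0.624 TPM (1.08, adjusted p = 0.00288), and Aqp11 gave 0.23 (adjusted p = 0.121). All normal lines had Aqp9 below the filter's cut of 1 TPM (at most 0.8), so Aqp9 was tested only through PanIN and tumor lines.

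**Figure D4:**
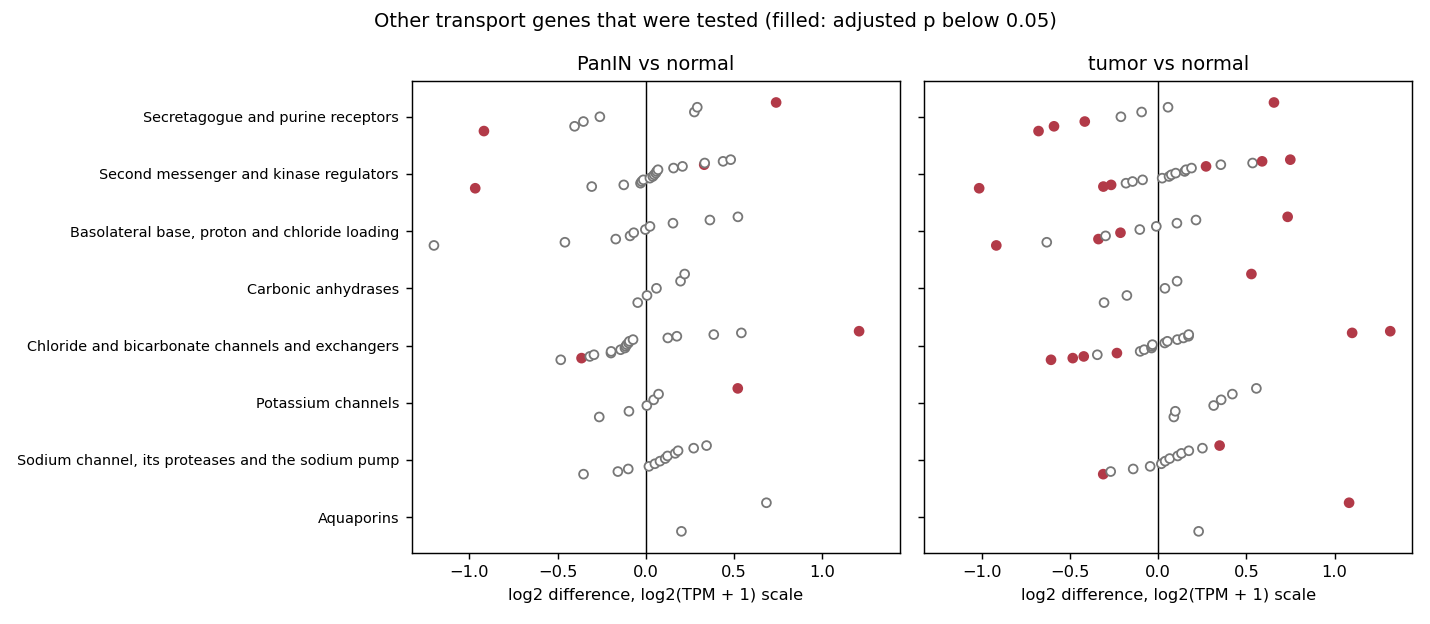
Difference in log2(TPM + 1) (x axis) of the 78 tested genes of the wider transport list, by group (y axis), for PanIN against normal (left) and tumor against normal lines (right); filled points passed an adjusted p of 0.05. The 7 called genes on the left and 24 on the right lie on both sides of 0.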

How the data were processed

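Per the labels' protocols, ribosomal RNA was depleted from total RNA of the 19 lines and stranded libraries were prepared. The authors deposited 1 table with the TPM of each gene in each line and, per the file headers, their own comparisons: a mean signal over all lines, a log2 fold change with its error, a test score, and a p-value before and after adjustment. The submitters' processing notes name build mm9 with Bowtie 1.1.0, RSEM 1.2.11, DESeq2 1.4.1 and FastQC. The annotation was not given in the sources used here. TPM keeps no depth, so read numbers are unknown, no counting interval is given and no count model was run.

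Log2(TPM + 1) values were tested with limma 3.58.1 in R 4.3.3 (3 group means over 19 lines, eBayes with trend, two-sided), with Benjamini-Hochberg adjustment over the 12500 genes with a TPM of at least 1 in at least 6 lines. A call is an adjusted p below 0.05. Group values are mean TPM ± SD. The test was tried on simulated data. Named genes are the 9 members and, from each wider group, up to 3 called genes per comparison with the smallest p and the most abundant gene. Alternatives covered scaling, pseudocount, filter, model terms and each line left out. The members and lists were chosen with earlier results of these data known. Certain alleles, and a gene selected by this rule, are not reported here. For reading files the package data.table, version 1.17.8 was used, and for figures matplotlib 3.10.9 in Python 3.11.15.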

Additional observations from a re-analysis of the deposited data

Results flagged for a closer look

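Each member was checked in each group for a line that stands apart, by the gap between the lowest or highest line and its neighbour relative to the whole range of the group on the log2(TPM + 1) scale. Of 27 such checks 2 passed the 95% limit, and chance passes about 1 in 20. Slc4a4 in PanIN 6 was 5.74 TPM, with the next PanIN line at 14.4. Slc12a2 in PanIN 5 was 73.4 TPM, with the next PanIN line at 111.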

How the results depend on the processing

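Under 32 other settings no called member changed direction, and the member and list counts moved as follows. The members called were 2 for PanIN against normal, 4 for tumor against normal and 0 for tumor against PanIN. Leaving out 1 line at a time gave 1 to 3, 4 to 5 and 0 to 2; the count of 1 came without PanIN 5 and the counts of 2 without PanIN 6 or tumor 4. Array weights gave 3 for tumor against PanIN. For the wider list (7, 24 and 2 called) leaving out lines gave 5 to 10, 19 to 26 and 0 to 10, the last being 10 without PanIN 6 and 5 without tumor 4, and array weights gave 12 for PanIN against normal and 27 for tumor against PanIN. The list count of 2 became 1 with the rescaling, pseudocount 0.1, no filter, no trend or a sex term, and 0 with only the 2 groups compared or a series term; the cause was not tested.

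Line numbers recur between groups, and whether they pair the lines is not known. Deviations of same-numbered lines from their group means correlated at -0.31 to 0.25 over 7 pairs, and none shared an identifier series. Correlations of other pairs were not worked out, so these values cannot decide whether lines were paired. A replicate block, which left 4 residual degrees of freedom against 16, gave 1 member called for PanIN against normal (Aqp5) and 1 for tumor against normal (Aqp5), and 0, 1 and 0 list genes.

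Over all genes the 847, 4024 and 200 calls became 258, 225 and 8 with the block and 496 to 893, 2657 to 4860 and 53 to 2836 with lines left out (496 without PanIN 5, 2657 without tumor 8, and 2836 without PanIN 6 or 2398 without tumor 4). A filter at TPM 5 gave 535 for PanIN against normal. For tumor against PanIN, median-of-ratios scaling gave 303, quantile normalization 333, no filter 93, the filter at TPM 5 130, only 2 groups 97, a series term 65 and array weights 4889. Depth is unknown, so the counting precision of low TPM values in single lines, such as those of Cftr and Scnn1a, cannot be given. The mean signal and the error of the log2 fold changes that the authors deposited were not used for this.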

Other observations

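For each member the genes with the most similar levels across the 19 lines were listed by Pearson r of log2(TPM + 1), as a description only. Slc4a4 was most like Hexa (r = 0.97), Mr1 (0.96) and Fgd2 (0.96), and with group means removed these were 0.93, 0.93 and 0.92. Cftr was most like Lifr (0.91), Sox11 (0.90) and Ephb3 (0.89), with 0.85, 0.84 and 0.84 within groups. Ano1 was most like Arpc2 (0.91), Adam9 (0.90) and Ralgps2 (0.89) but only 0.65, 0.57 and 0.59 within groups, and Aqp5 was most like Vsig1 (0.89), Pllp (0.87) and Zscan4c (0.87) with 0.59, 0.59 and 0.58 within groups. Car2 was most like Ankra2 (0.90), Zfp612 (0.89) and Rbm4b (0.88). Slc12a2 went with Extl2 (0.86), Arpp19 (0.84) and Bmp1 (0.82), and Scnn1a with Tmem125 (0.86), Gdi2 (0.84) and Usp43 (0.84). Aqp1 went with Anxa13 (0.82), Dnm3 (0.82) and Tmbim4 (0.79), and Kcnn4 with Gyltl1b (0.81), Phf13 (0.78) and Abhd8 (0.76). These values share the same libraries and the same normalization.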
